A study of Mus musculus with 10 samples.

Results

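Mammalian cells remodel fatty acids after they are made, by adding double bonds (desaturases) and by adding carbon atoms to the chain (elongases). Of the 15126 genes in the deposited table, the 10 described here are 5 desaturases (Scd1, Scd2, Fads1, Fads2 and Fads3) and 5 elongases (Elovl1, Elovl2, Elovl3, Elovl5 and Elovl6), chosen by their gene symbols and not by their levels. Their mRNA was measured by RNA-seq of polyadenylated RNA in livers of db/db mice, which lack a working leptin receptor and are obese and diabetic. The 5 livers described are those of the AAV8-Control group, from db/db mice that were 10 weeks old and had been infected 5 weeks before, by tail vein, with a virus that carried eGFP. The vector, adeno-associated virus 8 (AAV8), reaches mainly hepatocytes in liver, and the promoter it used is not given in the sources used here. The labels name the tissue as liver but the cells as primary hepatocytes treated with adenovirus, and the study's text describes livers of injected mice; markers of non-hepatocytes are given with the results. With a single group there is no contrast to test, and all values are descriptions of 5 livers, taken here as separate animals.

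Stearoyl-CoA desaturases (Scd1 in liver, Scd2 mostly elsewhere) place the first double bond in saturated chains and so supply oleate and palmitoleate for triglyceride, cholesteryl ester and phospholipid. Fads2 and Fads1 act in turn, with Elovl5 and Elovl2 between and after them, to turn the essential plant fatty acids into arachidonate, eicosapentaenoate and docosahexaenoate. Elovl6 lengthens palmitate towards stearate, Elovl3 and Elovl1 build long saturated and monounsaturated chains, and in liver many of these genes are known targets of SREBP-1c, LXR, ChREBP and PPAR alpha.

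Promoter sequences of 6 of the 10 genes were taken from RefSeq (GRCm38.p6), 8 promoters of 250 bases before and 50 after the start. Promoters of Scd1, Scd2, Fads1 and Elovl3 were not analysed here. Both strands were searched for 4 motifs: TCACNCCAC (a sterol regulatory element), CCAAT (NF-Y), GGGCGG (Sp1) and CACGTG (an E-box), present in 1.24%, 37.4%, 35.7% and 7.15% of 32851 promoters of the same length. Matches were found for CCAAT in 3 of the 6 genes, for GGGCGG in 4, for CACGTG in 1 and for TCACNCCAC in 0. These counts are of genes (6 genes with 8 promoters) and the shares above are of promoters, so the units differ. Elovl5 and Elovl6 are shown because their mRNAs had liver 3 as their highest and liver 4 as their lowest liver, as Scd1 did, and Fads3 because it stands for the cluster that varied less. The stretches end before the first annotated transcript start, read 5′ to 3′, and capitals mark motif matches.
Elovl5, chr9:77917115-77917363, forward strand: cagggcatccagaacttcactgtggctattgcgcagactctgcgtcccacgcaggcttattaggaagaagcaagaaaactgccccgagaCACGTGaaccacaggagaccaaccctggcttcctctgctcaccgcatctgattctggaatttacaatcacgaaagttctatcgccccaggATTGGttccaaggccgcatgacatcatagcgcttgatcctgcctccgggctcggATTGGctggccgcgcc
Elovl6, chr3:129532136-129532354, forward strand: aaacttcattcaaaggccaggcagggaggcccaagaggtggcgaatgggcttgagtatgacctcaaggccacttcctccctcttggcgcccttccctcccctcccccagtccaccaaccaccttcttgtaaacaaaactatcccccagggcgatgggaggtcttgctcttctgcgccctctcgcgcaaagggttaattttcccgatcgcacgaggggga
Fads3, chr19:10041298-10041547, forward strand: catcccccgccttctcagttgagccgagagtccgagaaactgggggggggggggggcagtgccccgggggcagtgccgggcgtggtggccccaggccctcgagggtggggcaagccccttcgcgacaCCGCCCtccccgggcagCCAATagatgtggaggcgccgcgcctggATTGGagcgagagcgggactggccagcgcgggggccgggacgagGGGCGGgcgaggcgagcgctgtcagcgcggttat
The Elovl5 stretch held CACGTG beginning 161 bases before the RefSeq start and 2 CCAAT matches on the reverse strand at 71 and 17 bases. Elovl6 held none of the 4 motifs in its window. Fads3 held 2 CCAAT and 2 GGGCGG matches. A match describes letters only and was not tested for binding.

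The 5 libraries held 19499795 to 35498596 reads counted on genes, with a median of 20769191, and the values below are CPM, the reads of a gene scaled so that every library has the same total. The deepest library was that of liver 3, and the part of depth in the levels of that liver was not tested. Of the 11041 genes that averaged 1 CPM or more over the 5 livers, the median gene differed by 1.30-fold between its highest and its lowest liver. For the 10 desaturases and elongases the median was 1.67-fold. On the log2(CPM + 1) scale the SD over livers was 0.30 for the median of the 10 genes and 0.14 for the median of all genes, and all 10 lay above the latter (8 without liver 4 and 9 without liver 5).

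Liver 4 was the lowest of the 5 livers for all 10 genes, where it was the lowest for 31.7% of all genes. For Scd2 it lay close to liver 5 (27.2 against 27.7 CPM). Liver 3 was the highest for 5 genes (Scd1, Scd2, Fads1, Elovl5 and Elovl6), where it was the highest for 15.8% of all genes. Liver 2 was the highest for 2 genes (Elovl2 and Elovl3, against 12.3% of all genes) and liver 5 for 2 (Fads2 and Elovl1, against 17.8%). Liver 1 was the highest for 1 of the 10, Fads3, against 37.8% of all genes. These places were noticed in the values and carry no test, and the 10 genes share library and denominator. Together the 10 genes took 2.46%, 2.61%, 3.85%, 0.730% and 2.07% of the reads of livers 1 to 5, of which Scd1 alone took 2.17%, 2.30%, 3.48%, 0.554% and 1.76%.

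**Figure D1:**
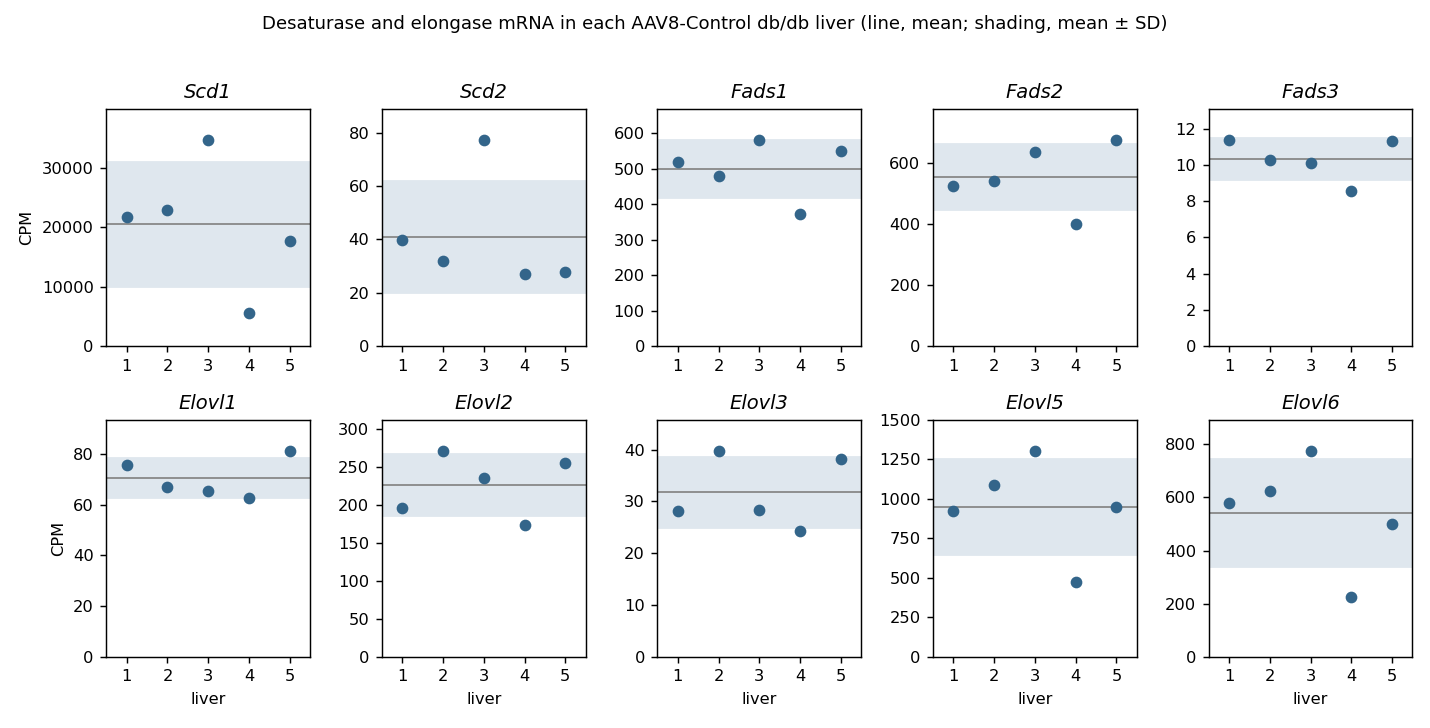
Level of each desaturase and elongase in CPM (vertical axes, each starting at 0) in AAV8-Control livers 1 to 5 (horizontal axis). Points are livers, the line is the mean and the shading the mean ± SD of the 5; liver 4 is the lowest point in all 10 panels, and liver 3 is the highest in 5 of them.

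Scd1, the main hepatic stearoyl-CoA desaturase, ranked 4 of the 11041 genes by mean CPM. Its level was 21694, 22999, 34754, 5535 and 17622 CPM in livers 1 to 5. Liver 3 was above and liver 4 below the other 3 livers, which lay within 17622 and 22999 CPM. The mean was 20521 ± 10525 CPM (SD, n = 5), and the highest liver exceeded the lowest 6.28-fold. By SD on the log2 scale Scd1 ranked 13 from the widest of all 11041 genes, and only 0.109% of genes spread more. The range was 1.97-fold without liver 4 and 4.15-fold without liver 3. These levels rested on 151862 to 1233719 reads a liver.

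Scd2, the paralog best known from brain and from developing liver and skin, was at 39.8, 31.9, 77.4, 27.2 and 27.7 CPM. Liver 3 alone was high, and the other 4 lay between 27.2 and 39.8 CPM. The mean was 40.8 ± 21.1 CPM (SD, n = 5), with a 2.85-fold range, and without liver 3 the mean was 31.7 CPM and the range 1.47-fold. Of the 5461 windows of 50 bases in Scd2 transcripts, 3.97% were identical to a stretch of another gene's transcripts (Scd1, Scd3 and Scd4 among them), and 7.98% came within 2 mismatches of Scd1, while 2.66% were identical to Scd1. Since the authors counted uniquely aligned reads of 1 gene, reads of identical windows may be missing from these levels, and reads of near-identical ones could be placed on the other paralog. Scd3 and Scd4, the other mouse paralogs, were at most at 0.338 and 0.197 CPM in any of the 5 livers.

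Scd1 exceeded Scd2 by 9.05, 9.45, 8.79, 7.62 and 9.26 on the log2(CPM + 1) scale in livers 1 to 5, with a mean of 8.84 ± 0.72 (SD, n = 5). In CPM the ratio ran from 204 to 720.5. The ratio was lowest in liver 4, which had the least of both genes, and next lowest in liver 3, which had the most of both. For Scd2, liver 4 was close to liver 5 (27.2 against 27.7 CPM).

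Fads1 and Fads2, the desaturases of polyunsaturated fatty acid synthesis, varied far less than Scd1, by 1.56-fold and 1.70-fold from the lowest to the highest liver. Fads1 was at 519, 479, 582, 372 and 550.1 CPM, a mean of 500.4 ± 81.3 CPM (SD, n = 5). Fads2 was at 524, 540.4, 634, 398 and 675 CPM, a mean of 554 ± 108 CPM (SD, n = 5). In both genes livers 3 and 5 were the highest pair and liver 4 the lowest. The ratio of Fads1 to Fads2 lay between 0.815 and 0.990 in CPM, with a mean of -0.14 ± 0.10 on the log2 scale (SD, n = 5). Fads2 was above Fads1 in each of the 5 livers.

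Fads3, the third gene of the cluster, acts on sphingoid bases and trans-vaccenate rather than on the common polyunsaturated chains. It was low at 11.4, 10.3, 10.1, 8.57 and 11.3 CPM, a mean of 10.3 ± 1.14 CPM (SD, n = 5), and rested on 213 to 359 reads a liver. Its range was 1.33-fold, narrow beside that of Scd1 but near the 1.30-fold of the median gene, and 43.3% of all genes spread more on the log2 scale.

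Elovl6, which feeds stearate to Scd1, had the same order of livers as Scd1, with livers 4, 5, 1, 2 and 3 from the lowest to the highest. Its values were 579, 624, 777, 224 and 502 CPM, a mean of 541 ± 204 CPM (SD, n = 5). Liver 4 lay 3.46-fold below liver 3 and below the other 4, which ranged over 1.55-fold. Elovl6 ranked 57 from the widest by SD on the log2 scale. Relative to Scd1 it was at -5.23, -5.20, -5.48, -4.62 and -5.13 on the log2 scale, so that liver 4 had the most Elovl6 for its Scd1 and liver 3 the least. The authors counted reads that aligned uniquely and to 1 gene. Of the 50-base windows of Elovl6, 3.98% recur in other genes' transcripts, so that reads there may be missing from its level. Within its span, introns included, 1671 bases overlap an unclassified transcript on the same strand, and how many of them are exonic was not measured.

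Elovl5, the elongase of the polyunsaturated pathway, lay at 921, 1086, 1305, 474 and 948 CPM, a mean of 947 ± 305 CPM (SD, n = 5). Its highest and lowest livers were those of Scd1 and Elovl6, with a range of 2.75-fold (1.42-fold without liver 4), and it ranked 130 from the widest. Its order of livers differed from that of its pathway partners Fads1 and Fads2, in which liver 5 was above liver 2. The ratio of Elovl6 to Elovl5 was -0.67, -0.80, -0.75, -1.08 and -0.92 on the log2 scale in livers 1 to 5, lowest in liver 4, with a mean of -0.84 ± 0.16 (SD, n = 5).

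Elovl2, needed for docosahexaenoate, was at 197, 272, 235, 174 and 255 CPM, a mean of 227 ± 40.7 CPM (SD, n = 5). Elovl3, an elongase of saturated and monounsaturated very long chains that is well known from brown fat and from its daily rhythm in mouse liver, was at 28.1, 39.8, 28.3, 24.3 and 38.2 CPM, a mean of 31.7 ± 6.86 CPM (SD, n = 5). Both had the same order of livers, with livers 2 and 5 the highest and livers 4 and 1 the lowest, and ranges of 1.57-fold and 1.64-fold. Elovl1, which makes very long saturated and monounsaturated chains for sphingolipids, was at 75.6, 67.0, 65.4, 62.6 and 81.3 CPM, a mean of 70.4 ± 7.79 CPM (SD, n = 5). Over all 5 livers it had the narrowest range of the 10 genes at 1.30-fold. Without liver 4 its range was 1.24-fold, wider than that of Fads3 (1.13-fold) and Fads1 (1.22-fold). Liver 3, so high for Scd1, was the second lowest for Elovl1.

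**Figure D2:**
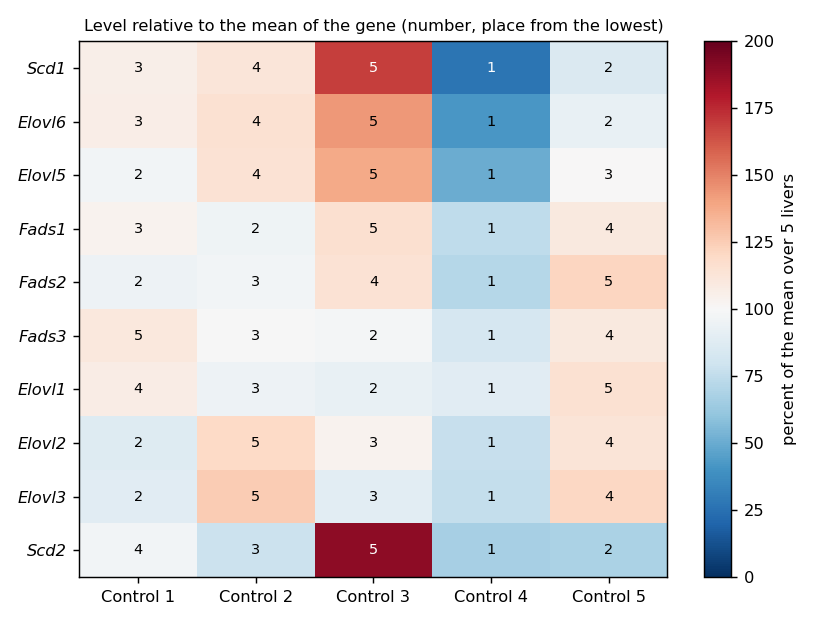
Level of each gene (rows) in each AAV8-Control liver (columns) as a percent of the mean of that gene over the 5 livers (colour), with the place of the liver from the lowest (1) to the highest (5) written in each cell. Control 4 holds place 1 in all 10 rows, and Scd1 and Elovl6 have the same order of livers, as do Elovl2 and Elovl3.

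Levels of different genes were set side by side as CPM per kb of merged exons. Scd1 was far above the rest at 4195 ± 2151 CPM per kb (SD, n = 5). Elovl5 followed at 269 ± 86.5, Fads2 at 168 ± 32.7, Fads1 at 104 ± 16.9, Elovl6 at 84.1 ± 31.6 and Elovl2 at 57.1 ± 10.3 CPM per kb, and the ranges of neighbours in this run overlapped from Elovl5 down to Elovl2. Within single livers Elovl5 was above Fads2 and Fads2 above Fads1 in all 5, and Elovl6 exceeded Elovl2 in 4 of 5. Fads1 exceeded Elovl6 in all 5 livers, but both were at 121 CPM per kb in liver 3, and their order depends on the length used. Elovl1 at 25.8 ± 2.86 and Elovl3 at 16.1 ± 3.47 CPM per kb came next without overlapping each other. Scd2 at 7.47 ± 3.85 overlapped Elovl3, and Fads3 was lowest at 2.72 ± 0.302 CPM per kb.

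**Figure D3:**
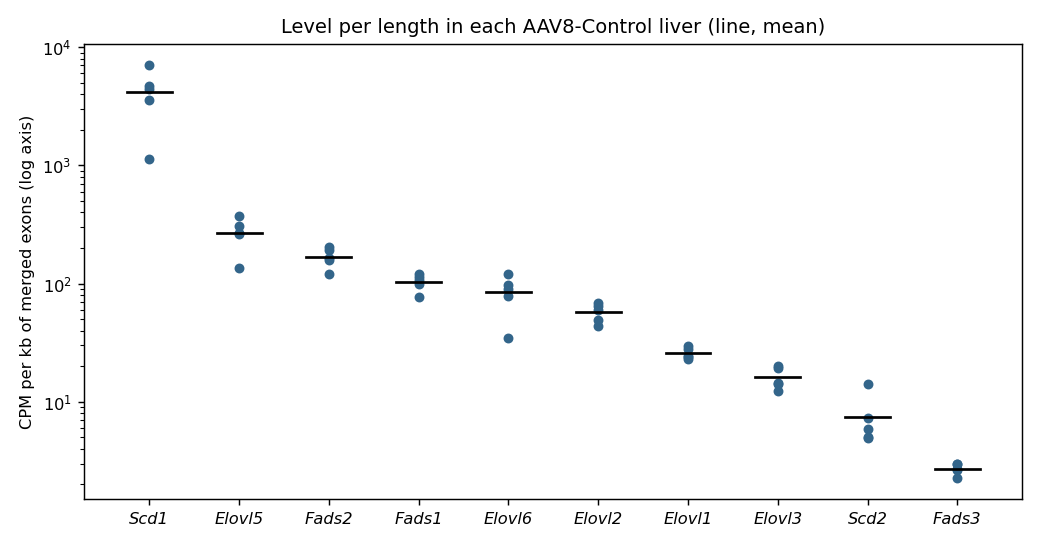
CPM per kb of merged exons (vertical log axis) for each gene in the 5 AAV8-Control livers (points), with the mean as a line. Scd1 lies highest and spans 6.28-fold from the lowest to the highest liver, and Fads3 lies lowest at 2.72 CPM per kb on average.

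Of the 10 genes, 6 lie on chromosome 19 of GRCm38. Fads3 (10041569 to 10060110, forward), Fads2 (10062765 to 10101746, reverse) and Fads1 (10182888 to 10196877, forward) sit in 1 cluster that spans 155 kb, and Scd2 (44293674 to 44306864, forward) and Scd1 (44394455 to 44407879, reverse) lie within 114 kb of each other. Elovl3 (46131897 to 46135694, forward) begins 1.83 Mb beyond Scd2. Elovl6 is on chromosome 3 (129532355 to 129638495), Elovl1 on chromosome 4 (118428093 to 118432953), Elovl5 on chromosome 9 (77917364 to 77984519) and Elovl2 on chromosome 13 (41182381 to 41220405). On the opposite strand, Elovl1 overlaps Cdc20 by 53 bases, Elovl6 overlaps the antisense gene Gm35986 by 34 bases and Elovl3 overlaps Pitx3 by 10 bases, and the sources used here do not say whether reads were counted by strand.

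Genes that work beside the desaturases and elongases were read in fixed lists, and those named from them were chosen after their values were seen, for their range or their known role. The list of fatty acid synthesis holds genes that make the palmitate used by Elovl6 and Scd1, or that supply or regulate that step, and also Gpam and Pnpla3, which act on glycerolipids. It had liver 4 as its lowest liver for 7 of 8 genes (31.7% of all genes) and liver 3 as its highest for 7 of 8, with a median range of 3.28-fold (1.73-fold without liver 4). Fasn, the fatty acid synthase, was at 1891, 1911, 2782, 715 and 1639 CPM, the same order of livers as Scd1. The acyltransferase and lipase Pnpla3 had the widest range of that list at 12.2-fold, with 24.4 CPM in liver 3, but 2.94-fold without liver 4 (8.31 to 24.4 CPM) and 6.51-fold without liver 3. Mid1ip1, an activator of acetyl-CoA carboxylase, was the exception, with liver 2 the lowest and a range of 1.43-fold.

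The 8 partners of the elongation cycle supply malonyl-CoA and carry out the reduction and dehydration steps. Of these, 5 were lowest in liver 4 (31.7% of all genes), with a median range of 1.38-fold. The widest were the acetyl-CoA carboxylases Acacb (2.98-fold, 75.9 to 226 CPM) and Acaca (2.94-fold, 39.7 to 117 CPM), and both ranges rested on liver 4, without which Acacb spanned 162 to 226 CPM and Acaca 70.1 to 117 CPM (1.67-fold). Of the enzymes of the cycle itself, the ketoacyl-CoA reductase Hsd17b12 ranged over 1.18-fold (197 to 233 CPM) and the dehydratases from 1.10-fold for Hacd2 (42.9 to 47.1 CPM) to 1.52-fold for Hacd1 (5.75 to 8.72 CPM). Of the 5 genes listed for electron supply to desaturases, 3 were lowest in liver 4, and Cyb5a was highest there (1227 CPM). The widest was the cytochrome b5 reductase Cyb5r3 (1.57-fold, 552 to 867 CPM). Of 2 relatives outside the 10 that averaged 1 CPM or more, Fads6 (149 to 209 CPM) and Degs1 (73.6 to 87.6 CPM), neither was lowest in liver 4.

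Regulators of these genes varied less than the genes of fatty acid synthesis. Of 14 listed, 11 were lowest in liver 4 (31.7% of all genes) and 2 highest in liver 3 (15.8% of all genes). Their median range was 1.27-fold, against 1.30-fold for all genes. Srebf1, which encodes SREBP-1c, had the widest range of them at 2.32-fold, with 479, 311, 442, 206 and 268 CPM in livers 1 to 5. Its lowest liver was that of Scd1, but its highest was liver 1. Mlxipl, which encodes ChREBP, was at 376, 295, 273, 257 and 333 CPM, lowest in liver 4 and next lowest in liver 3, where Scd1 was highest. Ppara, the receptor for fatty acids, spanned 92.5 to 113 CPM.

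**Figure D4:**
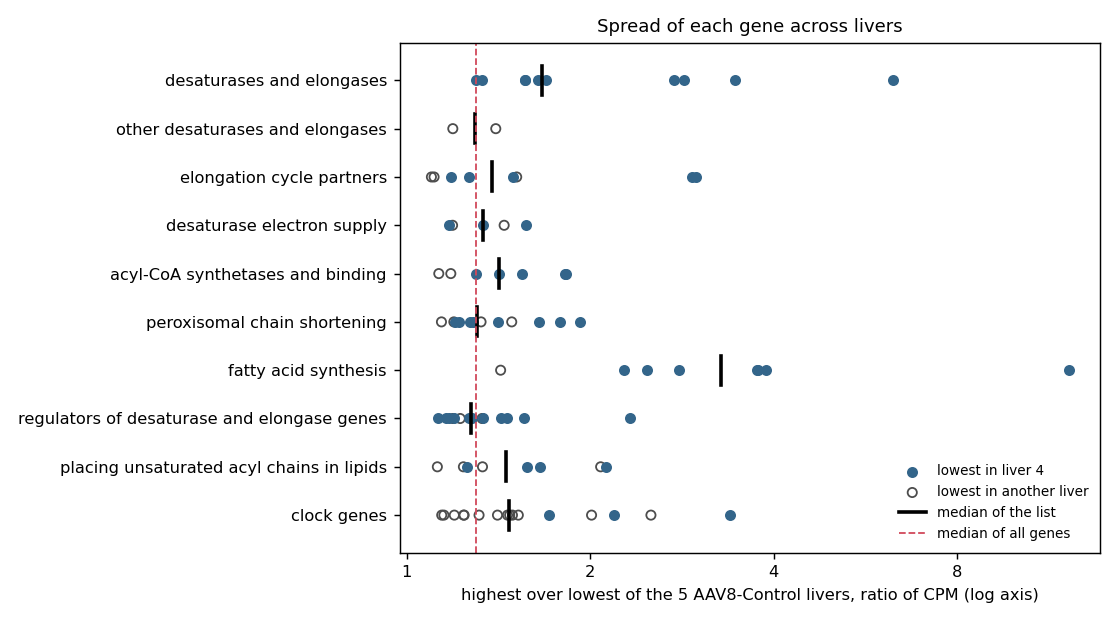
Ratio of the highest to the lowest of the 5 AAV8-Control livers in CPM (horizontal log axis) for each gene averaging 1 CPM or more of the desaturases and elongases and of 9 lists around them. Filled points are lowest in liver 4, thick bars are list medians and the dashed line is the median of all genes (1.30); fatty acid synthesis lies highest with a median of 3.28, and the desaturases and elongases lie at 1.67.

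Markers of the cells in the samples were read beside these results. The summed level of 8 hepatocyte markers ran from 97735 CPM in liver 1 to 133447 CPM in liver 4, and most of it was Alb (80000.3 CPM in liver 1 and 111611 CPM in liver 4). Of the 8, 0 were lowest in liver 4, but Hnf4a was highest in liver 1 (735 CPM, against 603 CPM in liver 4) and Apoa1 was second lowest in liver 4 (769 CPM). All 8 endothelial markers were lowest in liver 4 (31.7% of all genes), with sums of 132 to 281 CPM. The 8 Kupffer cell markers summed to 134 to 270 CPM and were never lowest in liver 4, the 8 stellate cell markers summed to 244 to 333 CPM with 4 lowest in liver 4, and the 7 cholangiocyte markers summed to 34.2 to 54.7 CPM, lowest in liver 3. All 8 T and B cell markers averaged under 1 CPM and summed to at most 4.43 CPM, and the 5 neutrophil markers listed summed to at most 2.79 CPM.

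Markers of fat cells, which also use Scd1, Elovl3 and Elovl6, summed to 36.7 CPM in liver 4 and to at most 152 CPM, in liver 2. All 4 of the 7 that averaged 1 CPM or more (Cidea, Cidec, Cfd and Retn) were lowest in liver 4 (31.7% of all genes). Cidea and Cidec are also made by fat-laden hepatocytes. Cfd, which encodes adipsin, was at 9.85, 8.28, 2.79, 1.02 and 1.74 CPM in livers 1 to 5, and Retn, which encodes resistin, ran from 1.09 CPM in liver 4 to 3.38 CPM in liver 1. Adipoq was at most at 1.23 CPM, Plin1 at most at 0.578 CPM and Lep at most at 0.103 CPM. The part of these cell types in the values of the 10 genes was not tested. In whole-liver RNA, fewer cells of a type and less RNA per cell cannot be told apart.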

How the data were processed

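Polyadenylated RNA of livers was sequenced with single reads of 50 bases. Per the labels and the study's methods, the authors aligned reads with STAR 2.0.4b to GRCm38.p2 and counted uniquely aligned reads of single genes with featureCounts 1.4.5 (Subread). The deposited table holds CPM values, scaled by the authors to all reads counted on genes. 15236 lines were merged to 15126 genes, 110 lines being repeats. At low values the CPM moved in steps of 1 read, and 100.0% of values gave whole reads (within 0.01 reads), at 19499795 to 35498596 reads a library (3 reads equal 0.0845 to 0.154 CPM). Samples were grouped by title, and the 5 AAV8-Control livers were used. The other 5 samples of the series, and with them the planned comparison and its tests, are not reported here.

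Means, SDs, ratios of the highest to the lowest liver and the place of each liver were computed with numpy 2.4.6 and pandas 2.3.3 (Python 3.11.15), for comparison with the 11041 genes that averaged 1 CPM or more in these livers. SDs and ratios between genes used log2(CPM + 1), which understates differences of low genes. Alternatives were a pseudocount of 0.1, no filter on low values, Scd1 left out of the totals, and each liver left out, applied to these values after seeing the data. No 2 libraries agreed within sampling noise. Where the labels do not name separate animals, the SD measures the spread between these samples.

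All 10 genes are named, with Srebf1 and Mlxipl as known regulators. Other genes of the lists were named for their range over livers or their known role, after their values were seen. The genes and lists were chosen with earlier results of these data known. Lengths and positions came from GENCODE M21 (GRCm38), promoters from RefSeq (GRCm38.p6). Protein sequences were not used here.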

Additional observations from a re-analysis of the deposited data

Results flagged for a closer look

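In 1 of 14 sets of 5 livers examined (each gene and each of the 4 ratios), the gap between the highest or the lowest liver and its nearest neighbour, as a share of the whole range, passed Dixon's 95% critical value, and chance gives about 1 in 20 such sets. Scd2 was at 77.4 CPM in AAV8-Control liver 3, where the other 4 livers lay between 27.2 and 39.8 CPM, a gap of 0.748 of the range. Gaps that set liver 4 apart reached 0.642 of the range for the Scd1 to Scd2 ratio, 0.594 for the Elovl6 to Scd1 ratio, 0.549 for Fads3, 0.538 for Elovl5, 0.508 for Fads1, 0.502 for Elovl6, 0.456 for Fads2 and 0.414 for Scd1, and did not pass. Liver 3 also had the most Scd1 (34754 CPM), Elovl5 (1305 CPM) and Elovl6 (777 CPM) and the deepest library (35498596 reads), and the part of depth was not tested.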

How the results depend on the processing

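Leaving Scd1 out of the library totals raised the mean CPM of the other 9 genes by 2.11% to 2.48%. With a pseudocount of 0.1 the Scd1 to Scd2 ratio was 8.87 on the log2 scale, and the other 3 ratios between genes were -0.14, -0.84 and -5.13. The range from the lowest to the highest liver depended on 1 liver for Scd1 (1.97-fold without liver 4, 4.15-fold without liver 3), Elovl6 (1.55-fold without liver 4), Elovl5 (1.42-fold without liver 4) and Scd2 (1.47-fold without liver 3), and for the other 6 genes it stayed within 1.5 times its value over 5 livers. With each liver left out, the mean of Scd1 ran from 16963 to 24267 CPM, that of Scd2 from 31.7 to 44.2 CPM, that of Elovl6 from 482 to 620.4 CPM and that of Elovl5 from 857 to 1065 CPM. The Scd1 to Scd2 ratio ran from 8.68 to 9.14 on the log2 scale, that of Fads1 to Fads2 from -0.17 to -0.10, that of Elovl6 to Elovl5 from -0.88 to -0.78 and that of Elovl6 to Scd1 from -5.26 to -5.04. The number of the 10 genes whose SD exceeded the median of all genes ran from 8 to 10 with each liver left out. Depth limits Fads3 (213 to 359 reads a liver) more than the others. No paired analysis was possible because only 1 group is described.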

Other observations

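Lists that stand further from the desaturases and elongases are given by their lowest livers. As background, liver 4 was the lowest liver for 31.7% of all genes. Of 16 clock genes, 3 were lowest in liver 4 (Per1, Npas2 and Arntl), with a median range of 1.47-fold. Per1, which peaks at a set hour in liver, was at 47.4, 23.1, 43.5, 21.7 and 24.2 CPM, and Npas2 had the widest range of the list at 3.40-fold, which without liver 1 was 1.58-fold. The hour at which each liver was taken is not given in the sources used here, and its part in these values was not tested. Of 8 enzymes that place acyl chains in phospholipid and triglyceride and averaged 1 CPM or more, 4 were lowest in liver 4. Lpcat3, which puts polyunsaturated chains in phosphatidylcholine, was at 178, 182, 192, 122 and 150.7 CPM, highest in liver 3. Of 12 peroxisomal chain-shortening genes, 8 were lowest in liver 4 (median range 1.30-fold), and Ehhadh had the widest range at 1.92-fold (486 to 935 CPM). Of 7 acyl-CoA synthetases and binding proteins, 5 were lowest in liver 4, and Slc27a2 and Slc27a5 were highest there (1016 and 1191 CPM).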
